A study of Mus musculus with 18 samples.

Results

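The 10 genes described here are used to recognise inhibitory and output neurons of the inner retina. They are the AP-2 transcription factor genes Tfap2a, Tfap2b and Tfap2c, the transmitter genes Gad1, Gad2 and Slc6a9, and Pou4f1, Pou4f2, Rbpms and Lhx1. They are a list of names, drawn up with earlier results of these data known. Each was measured over a window of its gene body and 2 kb on both sides, and they are 10 of 49939 gene windows of the mouse assembly mm10. The retinal data are 2 multiome ATAC libraries, in which a transposase cuts open chromatin of single nuclei and each cut piece is counted as a fragment. The control library was made from C57BL/6 mice of the line GLAST-CRE ERT2 ; RosaYFP, in which the Glast promoter drives a tamoxifen-dependent Cre in Muller glia. It carried mCherry, is labelled as retina and Muller glia, and is described with tamoxifen and 14 days. The other library is labelled Ikzf1/4, its characteristics repeat its title in place of tissue or line, and it too is described with tamoxifen and 14 days. In the headers of both files, however, the run names carry 48 h, so the time of collection is uncertain. The fibroblast data are the authors' comparison of R26-M2rtTA mouse embryonic fibroblasts (C57BL/6) after 48 h of doxycycline, all carrying Brn2 and Myt1l, with against without Ikzf1 and Ikzf4, from 3 libraries per group. The labels do not say that these came from separate cultures, so their p-values may measure technical spread only.

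Amacrine cells are the inhibitory interneurons of the inner retina, and most of them release GABA or glycine. AP-2 factors act in amacrine and horizontal cell development, Gad1 and Gad2 encode the enzymes that make GABA from glutamate, and Slc6a9 encodes the glycine transporter GlyT1. Ganglion cells send the retina's output to the brain. Pou4f1 and Pou4f2 (Brn3a and Brn3b) are their POU-homeodomain factors and Rbpms is an RNA-binding protein that marks them, while Lhx1 is a LIM-homeodomain factor best known in the retina from horizontal cells. An open window shows that transposase reached the DNA there and is not a measure of expression.

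The start sites on which the results turn are shown first, as the 250 bases before each start site, 5′ to 3′ on the gene's strand. They come from RefSeq on GRCm38.p6, the assembly that mm10 names, whose promoter table matched 8 of the 10 genes and leaves Tfap2c and Rbpms named only. Gad2 and the second start site of Slc6a9 are given because amacrine-like nuclei were high there, and the first start site of Slc6a9, Pou4f1 and Lhx1 because cone-like nuclei were.
Gad2, chr2:22622077-22622326 (+ strand): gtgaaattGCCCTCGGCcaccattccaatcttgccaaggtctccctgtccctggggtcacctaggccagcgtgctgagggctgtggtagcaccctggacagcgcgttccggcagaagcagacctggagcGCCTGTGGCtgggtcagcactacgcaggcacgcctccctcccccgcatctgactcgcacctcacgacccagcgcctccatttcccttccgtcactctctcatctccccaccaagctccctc
Slc6a9 first start site, chr4:117835008-117835257 (+ strand): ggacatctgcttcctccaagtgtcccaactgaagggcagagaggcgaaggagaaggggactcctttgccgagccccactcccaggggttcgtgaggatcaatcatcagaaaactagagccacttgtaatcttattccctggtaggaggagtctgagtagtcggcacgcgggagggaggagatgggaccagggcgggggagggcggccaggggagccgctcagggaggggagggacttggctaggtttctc
Slc6a9 second start site, chr4:117849100-117849349 (+ strand): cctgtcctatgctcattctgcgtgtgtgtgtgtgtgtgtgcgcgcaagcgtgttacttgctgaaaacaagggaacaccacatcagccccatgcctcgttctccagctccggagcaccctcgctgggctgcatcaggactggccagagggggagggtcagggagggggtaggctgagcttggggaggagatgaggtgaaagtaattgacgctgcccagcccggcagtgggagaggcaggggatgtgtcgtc
Pou4f1, chr14:104468000-104468249 (- strand): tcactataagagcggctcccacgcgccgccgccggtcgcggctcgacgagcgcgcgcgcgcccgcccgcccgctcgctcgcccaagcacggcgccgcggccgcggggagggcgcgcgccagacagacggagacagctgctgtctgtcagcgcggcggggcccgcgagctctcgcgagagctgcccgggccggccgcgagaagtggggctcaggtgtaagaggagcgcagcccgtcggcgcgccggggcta
Lhx1, chr11:84525535-84525784 (- strand): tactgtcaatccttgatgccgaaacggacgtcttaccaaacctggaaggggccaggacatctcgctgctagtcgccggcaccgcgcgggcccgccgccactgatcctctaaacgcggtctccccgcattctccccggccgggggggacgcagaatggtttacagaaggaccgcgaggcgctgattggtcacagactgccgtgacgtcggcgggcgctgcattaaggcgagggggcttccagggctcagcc
Capitals mark matches to the AP-2 motif GCCNNNGGC, searched on both strands together with the Ikaros core TGGGAA and the homeodomain core TAATTA. Gad2 held 2 AP-2 matches, which begin at positions -242 and -121 counted from the start site, and the other sequences shown held none of these motifs. Of 32851 promoters, 13.7% held the AP-2 motif, 21.6% the Ikaros core and 4.84% the homeodomain core in the same 250 bases. Among the members' sequences not shown, the upstream of the listed Tfap2a start sites held an Ikaros core at -13 and a homeodomain core at -32. A match only describes these letters.

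The control library held 52119123 unique fragments, read 1.96 times each, and the Ikzf1/4 library held 29358834, read 4.59 times each. Of their barcodes, 1955 and 745 had 3000 to 90000 fragments, with medians of 6248 and 10682, and 3 barcode sequences occurred in both libraries. Levels are fragments per 1000000 fragments of the barcodes or nuclei concerned, written CPM. With 1 library per group there is no replicate check and no test, and the 95% intervals (exact Poisson for levels, exact conditional binomial for ratios) cover counting error only. Depth moved with the library, and its part in the differences was not tested.

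Between the 2 libraries most of the 10 windows stayed within 1.5-fold of each other. Gad2 alone went past that size, with 13.3 CPM in the control and 8.52 in Ikzf1/4, a ratio of 0.639 (0.486 to 0.833). Both levels lay below those of its window in barcodes under 1000 fragments, 30.6 and 27.4, used below as a background for free DNA. Which members pass this size depends on the counting: with fragments of at least 2 read pairs alone, Gad2 had a ratio of 0.722 (0.518 to 1.001) and Gad1, at 0.663 (0.512 to 0.856), was the member past it. As a mean over barcodes, Gad2 had 0.672, and Gad1 (0.662) and Pou4f2 (0.591) were past it. No share over all windows was computed for these other ways of counting. With all deposited fragments of these barcodes pooled, 1 member was lower and 0 were higher by 1.5-fold, where 14.7% and 6.06% of 38589 windows with at least 20 fragments were. Within 500 bp of the start sites alone, the Gad2 ratio was 0.984 (0.468 to 2.00). There Gad1 (0.505, 0.145 to 1.44, from 16 control and 5 Ikzf1/4 fragments) and Tfap2b (0.539, 0.0939 to 2.16, from 9 and 3) were the 2 members 1.5-fold lower, with intervals that held 1, where 10.5% of 17638 genes with at least 10 fragments at their start sites were lower. The median ratio of the members over whole windows was 0.898, beside 1.02 over those windows. The members' counts are too few to set them apart from these shares.

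The other GABA gene, Gad1, was also lower in Ikzf1/4, at 14.3 against 19.5 CPM, a ratio of 0.734 (0.593 to 0.904). Rbpms had 61.0 in the control and 48.6 in Ikzf1/4, a ratio of 0.798 (0.711 to 0.894). Slc6a9 went the other way, with 74.4 in the control and 94.7 in Ikzf1/4, a ratio of 1.27 (1.16 to 1.39). Tfap2a had 37.1 and 43.3, a ratio of 1.17 (1.02 to 1.33). The counting intervals of these windows leave out a ratio of 1. Over barcodes of at least 10000 fragments those of Gad1 (0.879, 0.663 to 1.17) and Tfap2a (1.15, 0.964 to 1.37) held 1, and so did that of Tfap2a scaled to fragments in gene windows (1.11, 0.974 to 1.26).

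For the remaining windows the counting interval held a ratio of 1, so a difference was not detectable at this depth. Tfap2b had 7.60 in the control and 7.33 in Ikzf1/4, and Tfap2c had 11.8 and 11.2. Pou4f1 had 10.3 and 11.2. Pou4f2, the sparsest window, had 5.14 and 4.21, from 77 and 39 fragments, and Lhx1 had 8.81 and 7.44. The plot of levels by library shows these pairs beside Gad1, Gad2, Slc6a9 and Rbpms, whose counting intervals left out 1. Of those, Gad1, Gad2 and Rbpms lay below the same library's barcodes under 1000 fragments. There Gad1 had 24.5 in the control and 16.4 in Ikzf1/4, a ratio of 0.671 (0.575 to 0.780), and Rbpms had 83.2 and 86.9. The part of free DNA in these ratios was not tested, so they are not read as differences in accessibility.

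**Figure D1:**
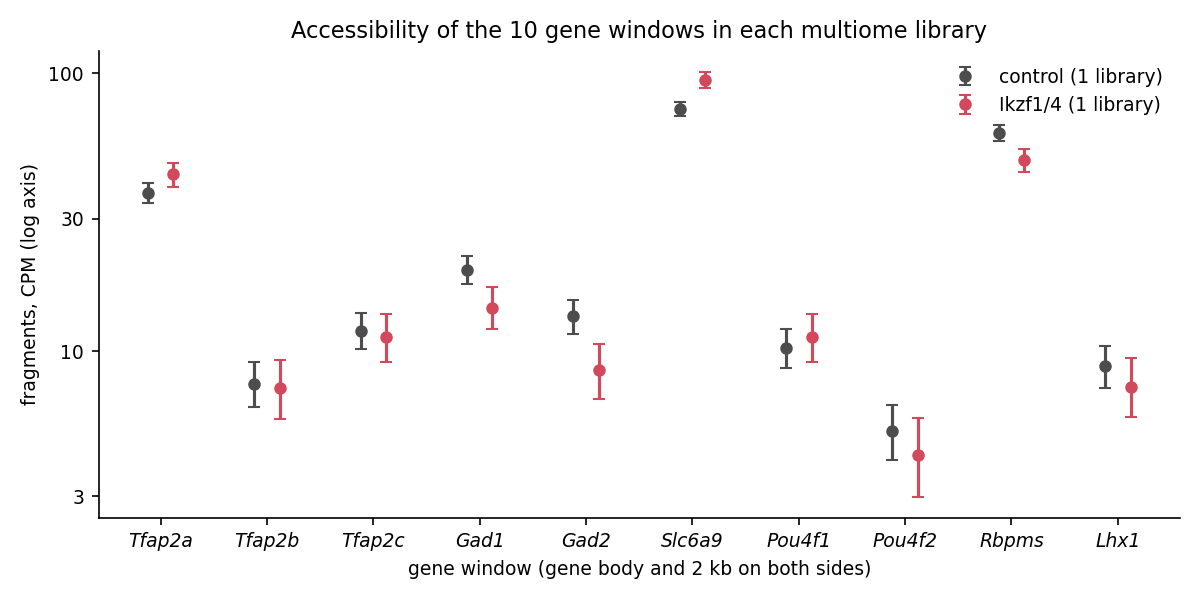
Fragments CPM (log axis) in the window of each gene, for the control and the Ikzf1/4 library, with 95% Poisson intervals for counting error. Gad2 lies at 13.3 in the control and 8.52 in Ikzf1/4 and Slc6a9 at 74.4 and 94.7, while the intervals of Tfap2b, Tfap2c, Pou4f1, Pou4f2 and Lhx1 overlap.

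The class of a nucleus was then set without these genes. Nuclei with a start-site enrichment of at least 4 (1893 control, 691 Ikzf1/4) were clustered on windows that overlap none of the members, and clusters were named from marker genes that leave the members out. Although the control is labelled Muller glia, 33.8% of its nuclei fell in Muller glia-like clusters and 34.0% in bipolar-like ones, with cone-like (13.9%), microglia-like (6.13%) and rod-like (4.81%) nuclei besides. In Ikzf1/4 the shares were 19.1% Muller glia-like, 34.4% bipolar-like, 21.7% cone-like, 2.60% microglia-like and 18.8% rod-like. These shares changed with the minimum of fragments. Over nuclei of at least 10000 fragments the control had 22.1% Muller glia-like, 20.4% bipolar-like, 22.9% cone-like, 15.6% microglia-like and 2.51% rod-like nuclei. Ikzf1/4 then had 11.98%, 38.3%, 27.9%, 2.60% and 13.8% in the same order. The near-equal bipolar-like shares thus held only without this higher minimum, and the cause was not tested.

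One cluster of 69 nuclei was named amacrine-like, and almost all of it came from the control. It held 68 of 1893 control nuclei, 3.59% (exact Clopper-Pearson interval 2.80 to 4.53), and 1 of 691 Ikzf1/4 nuclei, 0.145% (0.00366 to 0.804). Over nuclei of at least 10000 fragments the cluster held 6.42% (4.12 to 9.48) of the control and 0.260% of Ikzf1/4. Its highest markers were Slc32a1, the vesicular transporter of GABA and glycine, at 6.58 times the other control nuclei, and the amacrine transcription factor gene Prdm13 at 5.75 times. Next came Nefm, a neurofilament gene on the ganglion list, at 4.92 times, the amacrine factor gene Barhl2 at 4.85 times and the ganglion marker Nefl at 4.61 times. In all, 5 of 10 amacrine markers (median ratio 1.501), 7 of 10 ganglion markers (median 2.32) and 3 of 5 horizontal markers (median 1.53) were at least 1.5-fold higher there, so the ganglion list had the higher count and median and the name amacrine-like is only a label for the cluster. Below the other nuclei were the amacrine markers Ptf1a (0.384) and Meis2 (0.775), the ganglion markers Isl2 (0.447) and Eomes (0.491) and the horizontal markers Sall3 (0.578) and Onecut2 (0.836). The rod, cone, bipolar and Muller glia lists had no marker that far higher, and of the cone markers Opn1mw, Arr3 and Pde6h had no fragment in the cluster. The microglia and pericyte lists had 1 each, Csf1r (1.68) and Cspg4 (1.63). Ganglion and horizontal cells therefore cannot be told apart from amacrine cells within it. Because the cluster is made of 1 library but for 1 nucleus, class and library cannot be told apart in it.

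Within the control, 7 of the 10 members had at least 1.5-fold more fragments in amacrine-like nuclei than in the other nuclei, where 17.1% of 33836 windows with at least 20 fragments did. The cluster was made from other windows of the same nuclei, so this count describes it and is no test. Tfap2c stood furthest apart, with 58.9 CPM in amacrine-like nuclei and 10.1 in the others, a ratio of 5.82 (3.88 to 8.53). Gad2 followed with 39.9 against 11.1, a ratio of 3.58 (2.20 to 5.57). Slc6a9 had 208 against 72.0, a ratio of 2.89 (2.37 to 3.49).

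Pou4f1, a ganglion cell factor gene, had 20.8 CPM in amacrine-like nuclei and 10.0 in the others, from 12 fragments in the cluster, a ratio of 2.07 (1.04 to 3.73). Tfap2a had a ratio of 1.87 (1.32 to 2.58) and Gad1 of 1.72 (1.02 to 2.74). Lhx1 had a ratio of 2.02, but with 10 fragments its interval (0.943 to 3.84) held 1. Tfap2b (1.14, 0.364 to 2.76), Rbpms (0.876, 0.591 to 1.252) and Pou4f2 (0.644, from 2 fragments) were not higher at this depth. The intervals of Pou4f1, Rbpms and Pou4f2 overlap, and differences between genes were not tested. Over nuclei of at least 10000 fragments (23 amacrine-like), 4 members were at least 1.5-fold higher in place of 7: Tfap2c (5.46), Gad2 (2.84), Slc6a9 (2.49) and Lhx1 (1.53, 0.400 to 4.19). There Pou4f1 (1.35, 0.425 to 3.32), Tfap2a (1.21, 0.648 to 2.07) and Gad1 (1.16, 0.415 to 2.62) had intervals that held 1, and Rbpms had a ratio of 1.28. No share over all windows was computed over these larger nuclei, so this count of members stands alone.

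Barcodes under 1000 fragments, which were not called nuclei, were used as a background for free DNA. There Tfap2c had 10.96 CPM in the control, Slc6a9 31.9 and Tfap2a 16.7, all under the amacrine-like intervals. Gad2 had 30.6 there and Gad1 24.5, within the amacrine-like intervals of 24.5 to 58.1 and 20.6 to 52.0 (both libraries), and Rbpms had 83.2, above its amacrine-like level. The Gad2 and Gad1 levels over whole windows are therefore not above this background, and the start site, below, is the sharper measure for Gad2. Tfap2b had 14.0 in these control barcodes (12.7 to 15.4) and Pou4f2 4.84, within their amacrine-like intervals.

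Across all classes, with both libraries pooled, each gene had its own order. Tfap2c was highest in amacrine-like nuclei (57.2 CPM, 39.6 to 79.9), then in cone-like nuclei (20.1, 16.2 to 24.7), and lay between 3.39 and 9.39 in the other named classes. Tfap2a split the classes into a high group of amacrine-like (67.3), rod-like (63.3) and cone-like nuclei (59.4), whose intervals overlap, and a low group of microglia-like (38.6), bipolar-like (32.9) and Muller glia-like nuclei (31.7), although the amacrine-like and microglia-like intervals overlap. The place of rod-like nuclei in the high group rests on Ikzf1/4, where they had 71.1 (57.3 to 87.1): in the control they had 46.1 (30.4 to 67.1), which overlaps control microglia-like (39.3, 29.0 to 52.1) and Muller glia-like nuclei (33.5, 28.1 to 39.6). Tfap2b (chr1:19208908-19238845) was low throughout, from 1.06 in rod-like to 10.98 in bipolar-like nuclei, each below its 14.0 in control barcodes under 1000 fragments. In Ikzf1/4 bipolar-like nuclei had 11.7, beside 10.4 (8.77 to 12.3) in the same barcodes of that library. No order of classes is read from Tfap2b. Over whole windows, Tfap2c and Tfap2a thus had different orders in the same nuclei.

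Among the transmitter genes, Slc6a9 was highest in amacrine-like nuclei (212, 177 to 252), followed by rod-like (131) and cone-like nuclei (127), which did not differ beyond their intervals. Bipolar-like nuclei were next at 82.0, and Muller glia-like (47.2) and microglia-like nuclei (46.1) were lowest. Gad1 ran from 4.79 in rod-like nuclei through 21.9 in Muller glia-like to 33.6 in amacrine-like nuclei, and the intervals of the last 2 overlap. The place of Muller glia-like nuclei rests on the control, where they had 25.5 (20.8 to 30.96): in Ikzf1/4 they had 10.8 (5.88 to 18.1), below the cone-like (17.4) and bipolar-like levels (17.0) there, with overlapping intervals. Gad2 was 38.7 in amacrine-like, 14.1 in Muller glia-like, 10.7 in bipolar-like, 3.53 in cone-like and 3.19 in rod-like nuclei. Outside amacrine-like nuclei, these pooled levels of each named class lay below control barcodes under 1000 fragments, at 24.5 for Gad1 and 30.6 for Gad2. Those of Ikzf1/4 had 16.4 (14.3 to 18.7) and 27.4. Within libraries Gad1 was not below throughout: control Muller glia-like nuclei had 25.5, with 35.1 (25.5 to 47.1) in their cluster 7, beside 24.5. In Ikzf1/4 the cone-like (17.4) and bipolar-like levels (17.0) lay beside 16.4. No order of those classes is read from the GABA genes. The rod-like and cone-like Slc6a9 levels lay above the 31.9 of the same control barcodes.

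Pou4f1 was highest in amacrine-like (21.9, 11.6 to 37.4) and cone-like nuclei (17.9, 14.2 to 22.2), and low in Muller glia-like (5.43) and rod-like nuclei (4.26). Barcodes under 1000 fragments had 5.37 in the control and 8.29 in Ikzf1/4 for Pou4f1, and 6.97 and 7.77 for Lhx1. These low Pou4f1 levels and the rod-like Lhx1 level that follows lay near or below that background and are not ranked. Lhx1 had a like order, with 18.5 in amacrine-like, 14.6 in cone-like, 13.5 in microglia-like and 3.19 in rod-like nuclei, and its upper 3 classes did not differ beyond their intervals. Pou4f2 (chr8:78433009-78436647) stayed between 1.60 and 5.25 in all 6 named classes, with overlapping intervals, so no class was marked out by its pooled levels. Muller glia-like nuclei had 6.69 (4.41 to 9.74) in the control, from 27 fragments, and 0.768 (0.0195 to 4.28) in Ikzf1/4, from 1. Rbpms (chr8:33782643-33929922) was highest in microglia-like nuclei (116, 99.1 to 135), then in Muller glia-like nuclei (76.5, 69.2 to 84.2), and had 53.8 in amacrine-like nuclei. Of the named classes, microglia-like nuclei alone lay above the 83.2 of control barcodes under 1000 fragments, so the other classes are not ranked. The window of Rbpms, known as a ganglion cell marker, was thus most open in a class that is not neuronal.

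**Figure D2:**
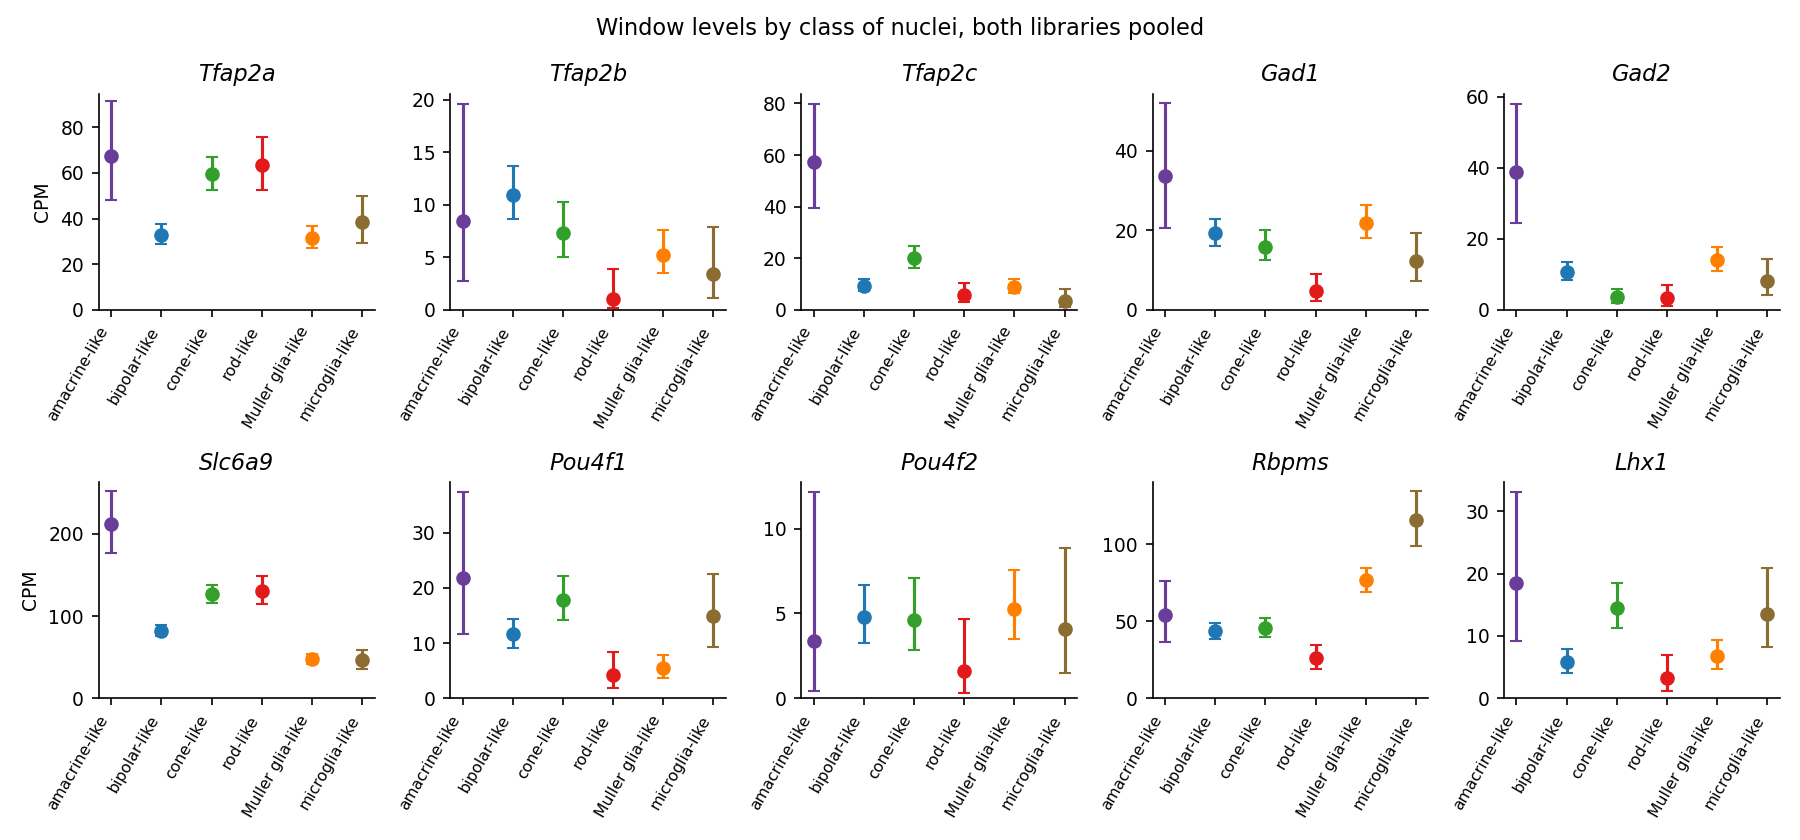
Fragments CPM in the window of each gene (1 panel per gene, each with its own axis from 0) for 6 named classes of nuclei, both libraries pooled, with 95% Poisson intervals. Amacrine-like nuclei are highest for Tfap2c (57.2), Gad2 (38.7) and Slc6a9 (212), Tfap2a is also high in rod-like and cone-like nuclei, and Rbpms is highest in microglia-like nuclei (116).

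Windows of different length can be compared per kb. Over amacrine-like nuclei the densest windows were Slc6a9 (5.57 CPM per kb), Tfap2c (3.38), Tfap2a (2.37) and Pou4f1 (2.09). The least dense were Tfap2b (0.248), Rbpms (0.356), Pou4f2 (0.440) and Gad2 (0.503). In the whole control library Slc6a9 (1.95 per kb) and Tfap2a (1.304) were densest and Gad2 (0.174) was the sparsest.

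The position of fragments within the windows was compared next, in 500 bp bins. Tfap2a lies at chr13:40713802-40738238 on the minus strand. A single 500 bp bin of its window, chr13:40722802-40723301, inside the gene body and 10.7 kb from the nearest start site, held 615 of its 951 fragments, or 64.7%. That bin had 53.2 CPM in rod-like, 40.0 in cone-like, 32.0 in amacrine-like and 16.7 in Muller glia-like nuclei. It was also the bin with the most amacrine-like fragments, 19 of 40, and the amacrine-like interval (19.2 to 49.9) held the cone-like level. Outside it, amacrine-like nuclei had 35.3 (21.9 to 54.0), cone-like nuclei 19.4 (15.6 to 23.9) and rod-like nuclei 10.1 (6.08 to 15.8), so the amacrine-like interval overlapped the cone-like one and not the rod-like one. Without the bin the ratio of amacrine-like to other control nuclei was 2.69 (1.63 to 4.23) in place of 1.87, whereas over nuclei of at least 10000 fragments, with the bin, it was 1.21 (0.648 to 2.07). Without the bin that of Ikzf1/4 to control was 0.979 (0.781 to 1.22) in place of 1.17. Those 2 ratios were taken over all barcodes in range. Over nuclei that passed the enrichment limit the bin itself had a ratio of 1.31 (1.11 to 1.54), beside 1.20 (1.05 to 1.37) for the whole window. The interval without the bin held 1 and also 1.17, so whether the higher Tfap2a level of the Ikzf1/4 library lay in this bin alone is not settled. Within rod-like nuclei the Tfap2a window had 71.1 in Ikzf1/4 and 46.1 in the control, a ratio of 1.54 (0.994 to 2.46). The share of rod-like nuclei also differed between the libraries, and at the control's mix of the other classes the Tfap2a ratio was 1.04, a value with no interval; the part of the mix of classes in the difference was not tested. The lncRNA gene Gm26688 overlaps both listed Tfap2a start sites, where all nuclei together had few fragments. The annotated Tfap2a gene begins further upstream than both, and that end was not counted as a start site. Tfap2b and Gad2 also begin before their listed start sites.

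Slc6a9 lies at chr4:117835258-117869305 on the plus strand and has 3 start sites in the RefSeq table. Its strongest bin, chr4:117836258-117836757, beginning 1 kb after the first start site, held 645 of 1975 fragments, with 60.6 CPM in rod-like, 41.3 in cone-like and 28.6 in amacrine-like nuclei. Amacrine-like fragments were instead most frequent at chr4:117847258-117847757, 12 kb after the first start site and before the second. There 29 fragments from 19 of the 69 amacrine-like nuclei gave 48.8 CPM (32.7 to 70.1), against 1.87 (1.35 to 2.53) in all other nuclei. Neighbouring bins with 12 fragments each, at chr4:117845258-117845757 and chr4:117846758-117847257, had 20.2 CPM in amacrine-like nuclei and at most 5.62 in any other named class. These bins were picked for their values and are described, not tested. Without the strongest bin, Slc6a9 had a ratio of amacrine-like to other control nuclei of 3.66 in place of 2.89. The protein-coding gene Ccdc24 overlaps the far end of the Slc6a9 window, so fragments there cannot be given to either gene.

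**Figure D3:**
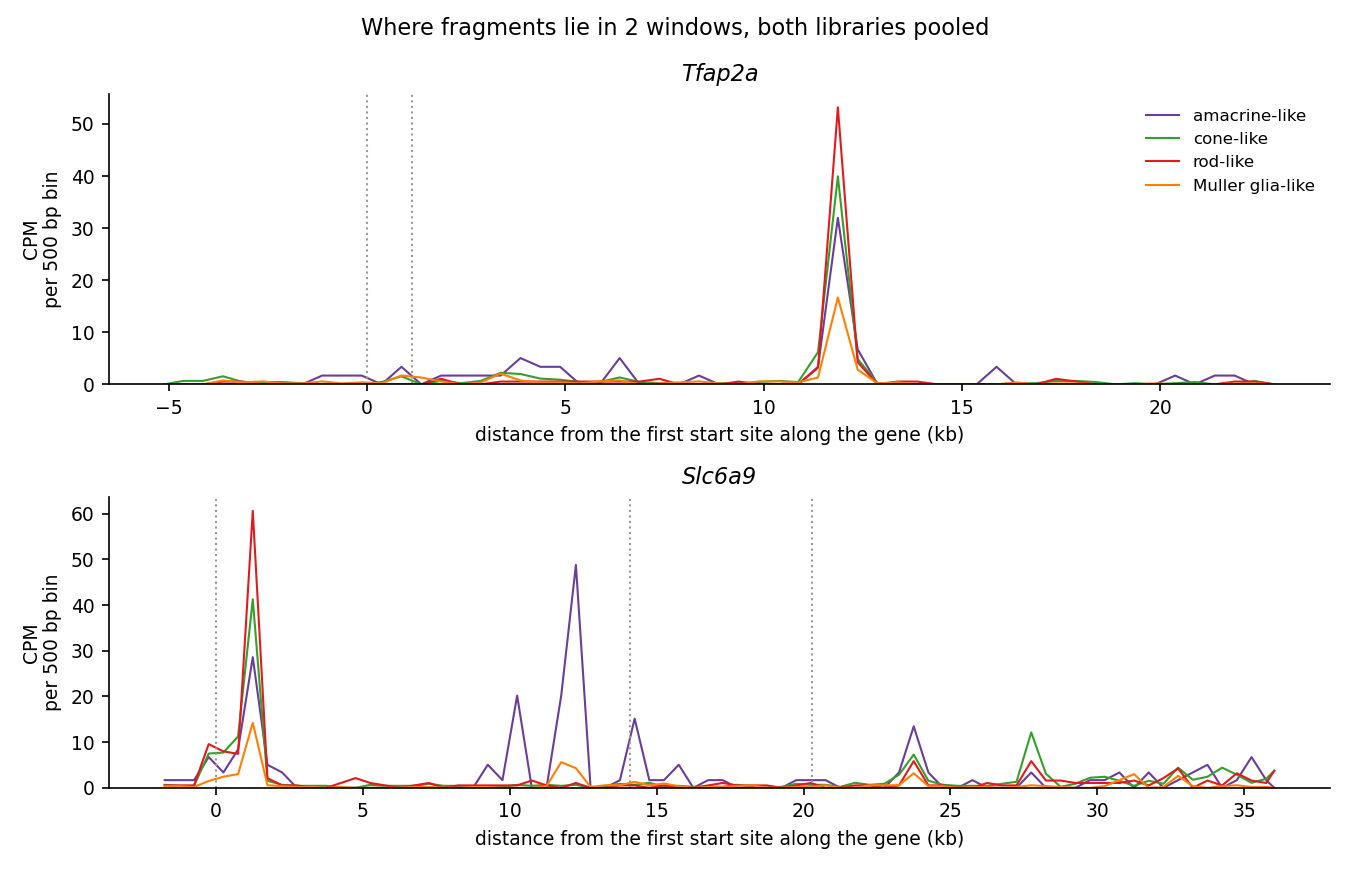
Fragments CPM in 500 bp bins along the windows of Tfap2a (top) and Slc6a9 (bottom), by distance from the first start site along the gene in kb, for amacrine-like, cone-like, rod-like and Muller glia-like nuclei of both libraries. Dotted lines mark RefSeq start sites. Rod-like nuclei peak at 53.2 in 1 bin of Tfap2a and at 60.6 after the first Slc6a9 start site, and amacrine-like nuclei reach 48.8 in a bin of Slc6a9 where rod-like nuclei have 1.06.

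The start sites themselves, taken as 250 bases before to 50 after, gave the same split for Slc6a9. At its first start site rod-like nuclei had 9.57 CPM and cone-like nuclei 6.62, from 18 and 30 fragments, and amacrine-like nuclei had 3.36 from 2. At the second, amacrine-like nuclei had 11.8 (4.73 to 24.3), from 7 fragments in 6 nuclei, against 0.758 in the others, a ratio of 15.5 (5.44 to 39.4). Of 16613 promoters with at least 10 fragments, 15.2% were at least 1.5-fold higher in amacrine-like than in other nuclei, 21.0% in cone-like and 36.1% in rod-like nuclei. The second start site was thus the more open one in amacrine-like nuclei and the first in photoreceptor-like nuclei, although the 2 amacrine-like fragments at the first leave that level wide (0.407 to 12.2).

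Gad2 lies at chr2:22621015-22693877, and its start site lay in the bin with the most amacrine-like fragments. Amacrine-like nuclei had 10.1 CPM there (3.70 to 22.0), from 6 fragments in 4 nuclei, against 0.714 in the other nuclei, a ratio of 14.1 (4.53 to 38.0). In the rest of the window, without the 500 bp bin of the start site, they had 27.7 against 10.3 in the other control nuclei, a ratio of 2.68 (1.49 to 4.51). In barcodes under 1000 fragments the same 300 bases had 0.262 in the control and 0.660 in Ikzf1/4, so this level lay above the background although the window as a whole did not. The other nuclei (0.714) had more than those barcodes as well. Nuclei were kept for their start-site enrichment and those barcodes were not, so this background does not set the cluster apart. Gad1 (chr2:70561303-70602014) had 2 amacrine-like fragments at its listed start site and 7 in all other nuclei, too few to place it. The lncRNA gene Gad1os overlaps the Gad1 start site and ATAC fragments carry no strand, so the signal there cannot be given to either gene.

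Tfap2c (chr2:172545678-172558622) also had a concentration of amacrine-like fragments inside its gene body. At chr2:172549178-172549677, 10 fragments from 8 nuclei gave 16.8 CPM, against 0.402 in the other nuclei. Cone-like fragments were most frequent in another bin, chr2:172552678-172553177, with 20 fragments and 4.41 CPM. Amacrine-like nuclei had none there, but their limit of 3 counts (5.05 CPM) lies above the cone-like level. A lower amacrine-like level in that bin is therefore not shown. Both bins were picked for their values.

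Pou4f1 (chr14:104461675-104468118, minus strand) and Lhx1 (chr11:84517975-84525534, minus strand) were open at their start sites in cone-like nuclei. Pou4f1 had 8.17 CPM there in cone-like nuclei (5.75 to 11.3), from 37 fragments, against 2.22 in all other nuclei, a ratio of 3.68 (2.30 to 5.89). Bipolar-like nuclei had 4.04 at that site, amacrine-like nuclei 5.05 from 3 fragments, and rod-like nuclei 0.532 from 1. The 2 photoreceptor-like classes thus differed at the Pou4f1 start site. Lhx1 had 11 cone-like fragments, or 2.43 CPM (1.21 to 4.34), against 3 fragments in all other nuclei, a ratio of 14.96 (3.95 to 83.5). Of those 3 fragments 2 were amacrine-like, a level of 3.36 (0.407 to 12.2), and bipolar-like and Muller glia-like nuclei had none there. In barcodes under 1000 fragments the Pou4f1 start site had 0.294 in the control and 0.367 in Ikzf1/4, and that of Lhx1 had 0.262 and 0.807. The lncRNA gene Lhx1os overlaps the region before the Lhx1 start site. The cone-like Pou4f1 level was 10.2 in the control and 5.94 in Ikzf1/4, from 24 and 13 fragments, and cluster 2 held 249 of 263 cone-like nuclei of the control while cluster 9 held 110 of 150 of Ikzf1/4.

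**Figure D4:**
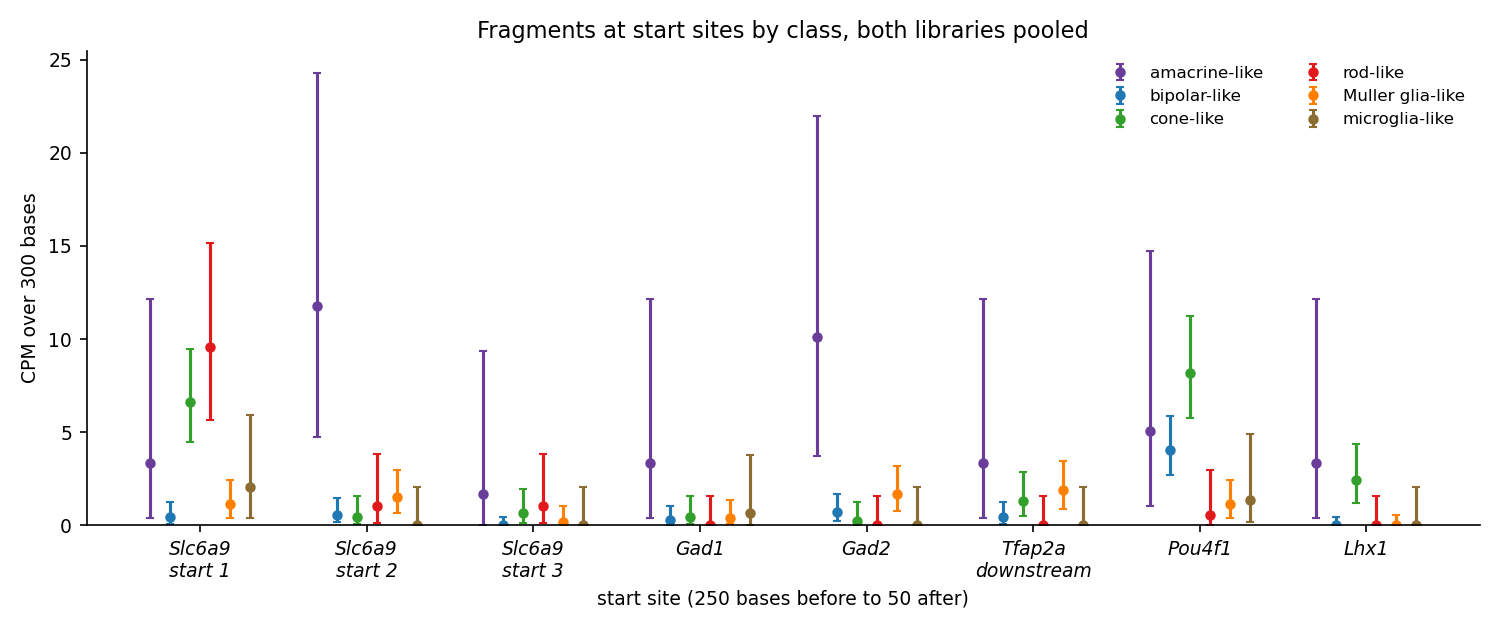
Fragments CPM over 300 bases at start sites of 6 member genes, by class of nuclei, both libraries pooled, with 95% Poisson intervals. For Tfap2a the downstream of its start sites is drawn. Amacrine-like nuclei are highest at the second Slc6a9 start site (11.8) and at Gad2 (10.1), cone-like and rod-like nuclei at the first Slc6a9 start site, and cone-like nuclei at Pou4f1 (8.17).

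Single amacrine-like nuclei held few fragments of these genes. Of the 69 nuclei, 49 had a Slc6a9 fragment, 28 a Tfap2a, 23 a Tfap2c, 17 a Gad2, 17 an Rbpms, 15 a Gad1, 12 a Pou4f1, 9 an Lhx1, 5 a Tfap2b and 2 a Pou4f2 fragment. The median nucleus had fragments of 3 members, none had more than 5, and 4 nuclei had none. Gad2 and Slc6a9 fragments occurred together in 10 nuclei and Tfap2c and Slc6a9 fragments in 18. At a median of 8133 fragments per nucleus, a missing fragment does not show a closed gene, so GABA-type and glycine-type nuclei could not be separated.

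Between libraries, the amacrine-like cluster could not be compared, since its 1 Ikzf1/4 nucleus held 6 Slc6a9, 1 Gad1, 1 Pou4f1, 1 Rbpms and 1 Lhx1 fragment and none of the other members. Over nuclei that passed the enrichment limit the ratio of Ikzf1/4 to control for Gad2 was 0.665 (0.497 to 0.880). Without that cluster it was 0.735 (0.547 to 0.981), and at the control's mix of the other classes it was 0.900. At the same mix, which leaves the amacrine-like cluster out, the ratio was 0.976 for Rbpms, 0.768 for Gad1 and 1.14 for Slc6a9. Without that cluster these ratios were 0.810, 0.771 and 1.37, and over all nuclei that passed the enrichment limit 0.815, 0.754 and 1.28. The ratios at the control's mix have no interval, and the part of the mix of classes in these differences was not tested.

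Within bipolar-like nuclei, Slc6a9 had 99.1 CPM in Ikzf1/4 and 70.4 in the control, a ratio of 1.41 (1.19 to 1.67). Bipolar-like nuclei lay in clusters 0, 3 and 5, with 271, 252 and 121 nuclei in the control and 103, 17 and 118 in Ikzf1/4. Cluster 0 was thus the largest of the 3 in the control, and cluster 5 in Ikzf1/4. The Slc6a9 ratio was 1.64 (1.27 to 2.11) in cluster 0, 1.48 (0.763 to 2.64) in cluster 3 and 1.21 (0.886 to 1.65) in cluster 5, so the interval left out 1 in cluster 0 alone. Cone-like nuclei had 128 and 125 and rod-like nuclei 134 and 125, ratios of 1.03 and 1.07. The interval of the bipolar-like ratio thus left out 1 and those of the photoreceptor-like classes held it; the difference between classes was not tested. Over all bipolar-like nuclei the Gad1 ratio was 0.824 (0.566 to 1.19), with 0.392 (0.181 to 0.778) in cluster 0, at 8.27 CPM in Ikzf1/4 against 21.1, 0.948 (0.109 to 3.80) in cluster 3 and 1.06 (0.597 to 1.94) in cluster 5. In Muller glia-like cluster 7 Gad1 had 10.8 in Ikzf1/4 against 35.1 (ratio 0.306, 0.107 to 0.722). Muller glia-like clusters are given by number because cluster 1 also had the astrocyte marker Gfap among its leading genes. In the other Muller glia-like clusters, 1 and 4, the Gad1 ratios were 0.820 and 0.980, with intervals that held 1. Clusters 0 and 7 were singled out for their values among the ratios of all clusters and members. No share over all windows was computed within clusters, so these ratios are described only. Cluster 0 had a median of 6465 fragments per nucleus in the control and 12230 in Ikzf1/4, and the part of depth was not tested.

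Other genes of the same pathways are read beside the 6.06% of all windows that were 1.5-fold higher and the 14.7% lower, with a median ratio of 1.02. Of 14 genes of GABA and glycine transmission, 0 were 1.5-fold higher and 3 lower, with a median ratio of 0.885: the glycine receptor genes Glra2 and Glra3 (both 0.398) and the GABA receptor gene Gabra2 (0.619), while Glra1 (1.11) and Abat (1.08), which breaks GABA down, were the highest. Of 14 further amacrine genes, 0 were higher and 1 lower, Slc17a8 (0.570), a vesicular glutamate transporter gene of some amacrine cells, with Barhl2 at 0.768, Ptf1a at 1.26, Th at 1.20 and a median of 0.971. Of 18 further ganglion cell genes, Nefh (1.59) and Isl1 (1.58, also a bipolar factor) were higher and Nefm (0.633) lower, with Eomes at 0.745 and a median of 0.994. None of 14 horizontal and LIM-homeobox genes passed 1.5-fold, from 0.788 for Ldb2 and 0.817 for Calb1 to 1.34 for Sall3 and 1.38 for Lhx4, with a median of 0.946. The other AP-2 genes, Tfap2d (0.789) and Tfap2e (1.002), did not pass it either. With 14 to 18 genes a list, these counts are too few to set a list apart from those shares.

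The windows whose levels ran most alike over 11 class-by-library points, among 25383 windows with at least 100 fragments, differed from gene to gene. For Slc6a9 they were Nsg2, a neuronal vesicle protein gene (Pearson r 0.957), Psmd2 (0.947) and the glutamate transporter gene Slc1a1 (0.942). For Tfap2c they were Gm36388 (0.954), Grip1 (0.946) and Car15 (0.946). For Rbpms they were LOC108167736 (0.978), Camk1 (0.973) and the TGF-beta receptor gene Tgfbr2 (0.969). For Gad2 they were Potegl (0.958), Ncam2 (0.947) and Gm40339 (0.943), and for Pou4f1 Gm33875 (0.929), Otp (0.924) and Hcrt (0.920). The points share libraries and depth, so these values describe likeness only.

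In fibroblasts, 2 of the 10 genes were higher with Ikzf1 and Ikzf4 in the authors' deposited table. In bulk RNA, more cells of a type and more RNA per cell cannot be told apart. In the authors' deposited table Pou4f1 (ENSMUSG00000048349) had a mean normalised count of 65.9 over both groups and a log2 fold change of 1.03 (SE 0.20, DESeq2 adjusted p 4.12e-06). In the same authors' deposited table Tfap2c (ENSMUSG00000028640) had a mean of 10.2 and a log2 fold change of 0.56 (SE 0.19, DESeq2 adjusted p 0.0157). Of the 7 members with an adjusted p there, 2 were called, both higher, beside 30.6% of 16757 genes in either direction and 15.3% higher, a share near that of all genes. The authors' deposited table gives no value per library, so the spread of single libraries cannot be shown.

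The other members did not pass the threshold of 0.05. The authors' deposited table gave Slc6a9, with a mean of 417.7, a log2 fold change of 0.18 (SE 0.11, DESeq2 adjusted p 0.226), and Rbpms, with a mean of 337.3, one of -0.15 (SE 0.14, DESeq2 adjusted p 0.468). Log2 fold changes per the authors' deposited table were 0.15 for Tfap2a (SE 0.22), -0.10 for Gad2 (SE 0.23) and -0.08 for Tfap2b (SE 0.16), at means of 41.3, 22.4 and 3.96. Gad1 (mean 1.44), Lhx1 (2.09) and Pou4f2 (0.353) carry no adjusted p, per the authors' deposited table, and had too few counts for a statement.

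**Figure D5:**
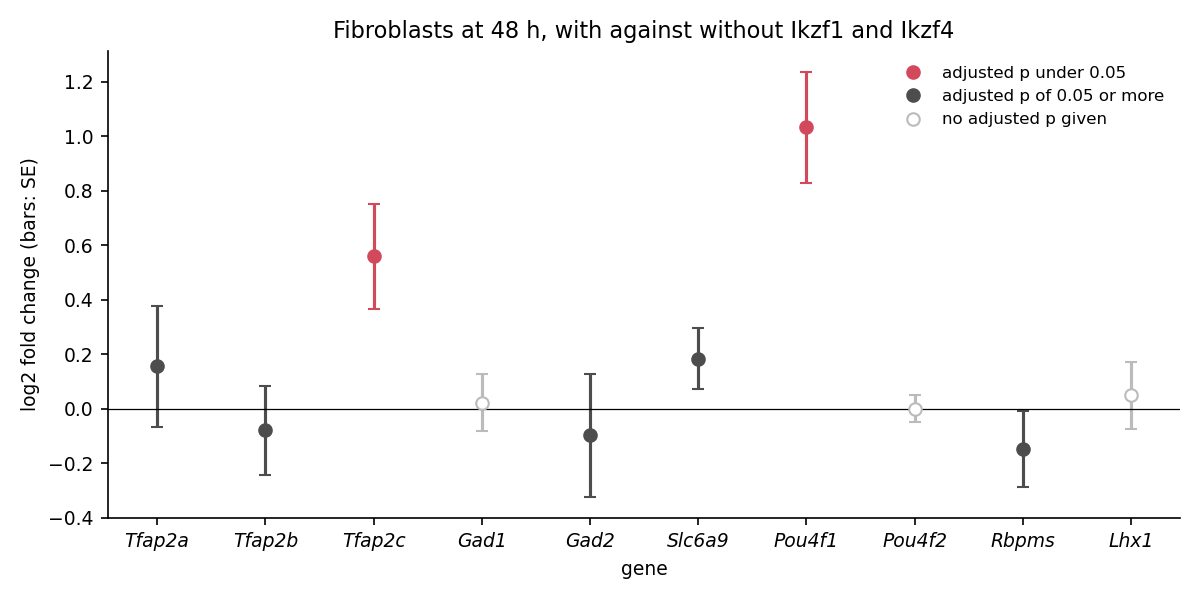
Log2 fold change (with against without Ikzf1 and Ikzf4, fibroblasts at 48 h) of each gene from the authors' deposited table, with bars for the SE and filled red points for an adjusted p under 0.05. Pou4f1 (1.03) and Tfap2c (0.56) lie above 0, and the open points of Gad1, Pou4f2 and Lhx1 have no adjusted p.

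Among the related genes, the authors' deposited table called 5 of 16 ganglion cell genes with an adjusted p higher and 3 lower, where 15.3% of all genes in it were called higher and 15.4% lower. The counts of this list and of those that follow are too small to set a list apart from these shares. Higher were Sncg (log2 fold change 2.65), the LIM-homeodomain genes Isl1 (2.21) and Isl2 (0.61), Eomes (0.71) and Ebf3 (0.67), and lower were Ebf1 (-0.95), Thy1 (-0.53) and Rbpms2 (-0.30), all from the authors' deposited table. Of 5 amacrine genes with an adjusted p the authors' deposited table called Pax6 (0.69) and Prdm13 (0.37) higher. Among the GABA and glycine genes, those called included Gabra2 (1.17) and the vesicular transporter gene Slc32a1 (1.01), which were higher, and Aldh5a1 (-0.56), an enzyme of GABA breakdown, which was lower, again in the authors' deposited table. Of 12 horizontal and LIM-homeobox genes the authors' deposited table called Onecut2 (1.33), Sall3 (1.35), Lhx4 (1.27) and Lhx5 (0.65) higher and Ldb2 (-1.05) lower. The median log2 fold changes in the authors' deposited table were 0.16 for the ganglion, 0.37 for the amacrine, 0.11 for the GABA and glycine and 0.04 for the horizontal and LIM-homeobox genes, beside -0.00043 over all 16757 genes, and neither AP-2 relative has an adjusted p.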

How the data were processed

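The members and gene lists were chosen with earlier results of these data known. Per the file headers, the authors made the multiome fragment files with cellranger-arc 2.0.1 and its mm10 reference, and the deposited files hold 1 line for every unique fragment, with its barcode and its count of read pairs. Fragments overlapping a gene window (RefSeq, GRCm38.p6) by at least 1 base were counted with Python 3.11.15 and scaled to CPM over barcodes of 3000 to 90000 fragments. Nuclei were clustered by latent semantic indexing (18 components, 15 neighbours, Leiden resolution 1, leidenalg 0.10.2) on 35247 windows. No doublet caller was run, and barcodes over 90000 fragments were left out. Named genes were all members, plus the 2 highest and 2 lowest ratios of each list, those called in fibroblasts (1 gene that the rule names is not reported here), and the 3 windows most alike each member. Intervals were tested on simulated counts.

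Per the labels, the authors compared the fibroblasts with DESeq2. Their deposited table gives a mean normalised signal, a log2 fold change with its SE, a Wald score, and p-values, raw and adjusted. Shrinkage of the fold changes is not stated in its header or in the labels. A threshold of 0.05 on the adjusted p was used. The edgeR fit per gene that was planned was not run, since transcripts are not paired with genes in the sources used here. Peak lists, transcript estimates, multiome RNA and single-cell RNA were not used here.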

Additional observations from a re-analysis of the deposited data

Results flagged for a closer look

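Barcodes that the comparisons leave out also held fragments of the members, and some windows there lay above the control in Ikzf1/4 by more than counting error and others below it. In barcodes under 1000 fragments the Tfap2a window had 20.8 CPM in Ikzf1/4 and 16.7 in the control, a ratio of 1.246, and the Pou4f1 window had 8.29 and 5.37, a ratio of 1.544. In the same barcodes the ratio was below 1 for Gad1 (0.671, 0.575 to 0.780), Tfap2b (0.744, 0.611 to 0.901), Tfap2c (0.749, 0.599 to 0.931) and Slc6a9 (0.840, 0.743 to 0.949). In barcodes of 1000 to under 3000 fragments the Slc6a9 window had 96.6 in Ikzf1/4 and 43.8 in the control, a ratio of 2.206 (1.66 to 2.92), the opposite direction to that in the smaller barcodes. In barcodes over 90000 fragments the Lhx1 window had 11.1 and 6.62, a ratio of 1.684 (1.005 to 2.94).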

How the results depend on the processing

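The ratio between libraries of Tfap2a went from 1.17 to 0.979 without its strongest 500 bp bin, an alternative chosen after seeing the data; the bin holds most of the fragments of that window. Counting only 500 bp around start sites, 2 members in place of 1 were 1.5-fold lower in Ikzf1/4, where 10.5% of genes were, and both rest on 16 fragments or fewer in a library with intervals that held 1. For Tfap2c and Rbpms this measure covered both gene ends. As a mean over barcodes, 2 members were lower as well, Gad1 and Pou4f2, and with at least 2 read pairs 1 was, Gad1 in place of Gad2. These counts were added after seeing the data and have no share over all windows beside them. At a smaller log2 fold of 0.32, 1 member was higher and 3 were lower, where 7351 of 38589 windows were higher and 9683 (25.1%) lower. Over nuclei of at least 10000 fragments, 4 members in place of 7 were 1.5-fold higher in amacrine-like nuclei, and the control's amacrine-like share was 6.42% in place of 3.59%, with 0.260% in Ikzf1/4. For that count of members no share over all windows was computed. With an absolute log2 fold change over 1 as well, 1 member in place of 2 was called in the authors' deposited table, where 2.15% of genes were. The cause of these shifts was not tested. Of the ratios of single windows under an alternative, 135 stayed within the counting interval of the reported value and 14 moved outside it. A further 1, that of Tfap2a without its strongest bin, moved outside a reported interval that left out 1, and to the other side of 1. Among the 14, the Lhx1 ratio between libraries within 500 bp of start sites (1.155, reported 0.845) also crossed 1. So did the amacrine-like ratio of Rbpms over nuclei of at least 10000 fragments (1.279, reported 0.876). Both reported intervals held 1. Of the summary values, 22 stayed within 1.5 times the reported count or within its interval and 7 did not. No paired analysis was possible because each multiome group has 1 library, the authors' table gives no value per library, and the transcript estimates per library could not be summed to genes, since transcripts are not paired with genes in the sources used here. The planned DESeq2, edgeR and leave-one-out alternatives, which need gene values per library, were not run. Windows under 100 fragments, such as Pou4f2 in either library, resolve only large differences.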
